A study of Mus musculus with 151 samples.

Results

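The nuclear genes named for subunits and assembly factors of respiratory complex I were followed through ovaries, germ cells and cumulus cells of female mice conceived naturally (Natural) or by in vitro fertilization (IVF). Members were all gene names made of Nduf, one of the letters or letter pairs a, b, c, s, v, ab or af, and a number, with at most 1 further letter. The rule found 44 of the 35976 gene names in the count tables. Complex I, NADH:ubiquinone oxidoreductase, takes electrons from NADH, passes them along a chain of iron-sulfur clusters to ubiquinone and pumps protons across the inner mitochondrial membrane. Its N module oxidises NADH, its Q module reduces ubiquinone, and its membrane arm, with a proximal and a distal part, moves the protons. The central pumping subunits are encoded by mitochondrial DNA, and all the members here are encoded in the nucleus. Oocytes depend on mitochondrial respiration for their growth and meiotic maturation.

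By role, 10 members belonged to the N module, 6 to the Q module, 9 to the proximal and 10 to the distal membrane arm, and 7 (Ndufaf1 to Ndufaf7) were assembly factors, which help to build the complex and are not part of it when it is complete. Ndufab1 is the mitochondrial acyl carrier protein, and Ndufa4 carries a complex I name but is a subunit of complex IV. Of the subunits, 7 were core subunits, those conserved from bacteria, among them Ndufv1, Ndufs1, Ndufs7 and Ndufs8.

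Both groups had CF-1 mothers and B6/SJL fathers, and all libraries were made from females. Natural offspring came from matings in the natural estrous cycle without embryo transfer. IVF offspring came from eggs of superovulated CF-1 females and capacitated B6/SJL sperm, grown in culture to blastocysts and transferred to pseudopregnant females. The adults of both groups were delivered by c-section and fostered to CF-1 dams. Whole ovaries were compared at embryonic day E18.5 (4 Natural and 6 IVF libraries), at 12 weeks (4 and 5) and at 39 weeks (5 and 5, with Natural 5 labelled both 39 and 40 weeks). Primordial germ cells (PGCs) of E13.5 female gonads gave 4 Natural and 5 IVF pools, single oocytes at 12 weeks (36 and 40) were summed into 5 sets in each group by the first fields of their names, single oocytes at 39 weeks numbered 9 and 10, and cumulus cells at 12 weeks gave 5 and 5 pools. Adult oocytes and cumulus cells came from superovulated females. The methods give E19.5 in one place and E18.5 in another for the collection of IVF fetuses, so a possible age gap and the group cannot be told apart at that stage.

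The ovary libraries held between 2839020 and 43363800 counts (at E18.5 between 6995710 and 14830800), the PGC libraries 4364500 to 8675190, the 12-week oocyte sets 19624100 to 58259500, the 39-week oocytes 2820750 to 31126400 and the cumulus pools 2532820 to 6345250, all rounded to 6 digits. No pair of replicates agreed within sampling noise. The germ cell genes Dazl, Ddx4 and Dppa3 were high in the PGCs. There 9 granulosa and cumulus genes summed to at most 12.0 counts per 1000000 (CPM). Of these, Foxl2, Amh, Fshr and Has2 were at 0 in every PGC library. Summed CPM of 3 endothelial genes, of which only 1 was high enough to be tested, ran from 73.5 to 280 in Natural and from 119 to 453 in IVF pools. For 5 oviduct and epithelium genes, of which 4 were tested, it ran from 176 to 366 and from 193 to 384. The purity of the pools was not tested. The 3 ovary ages and the 3 cell types came in tables of their own, so age or cell type and table cannot be told apart. Replicates are the samples that the labels give as separate, except that 12-week oocytes were taken as sets by their names, whose fields the labels do not explain, so that a set is assumed and not known to be 1 animal. The p-values measure the spread between these replicates. Levels are CPM, counts per 1000000 counts of a library, on library sizes scaled by TMM. The values of single oocytes, and the sums of the 39-week oocytes with their ratios, are on total counts without TMM. "Called" means an adjusted p under 0.05 in edgeR's quasi-likelihood test with Benjamini-Hochberg adjustment over all genes tested, the source of every adjusted p below.

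The promoters of the 6 members with the lowest p-values at E18.5, a choice made from these same data, are shown first. RefSeq (GRCm38.p6) gave the 250 bases before and 50 after the start of 39 of the 44 members, and none was used for the others, among them Ndufs1, Ndufb9, Ndufaf6 and Ndufa2. Capitals mark a match, on either strand, to CCGGAAG, the core bound by ETS factors such as GABPA, or to AAGATGGC, a core bound by YY1, a zinc finger factor. The NRF1 core GCATGCGC, also searched, was in none of the 6, and no 2 of the motifs can overlap fully. The windows are chrX:20617570-20617869 on the minus strand for Ndufb11, chr4:40279372-40279671 on the minus strand for Ndufb6, chr10:80249199-80249498 on the plus strand for Ndufs7, chr19:3912725-3913024 on the minus strand for Ndufs8, chr7:97399753-97400052 on the plus strand for Ndufc2 and chr19:44555393-44555692 on the minus strand for Ndufb8.
Ndufb11: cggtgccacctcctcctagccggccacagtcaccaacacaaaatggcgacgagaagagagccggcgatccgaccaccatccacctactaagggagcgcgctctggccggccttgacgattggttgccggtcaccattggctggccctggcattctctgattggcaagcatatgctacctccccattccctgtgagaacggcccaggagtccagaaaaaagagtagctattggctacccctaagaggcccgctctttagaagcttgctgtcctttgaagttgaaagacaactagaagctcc
Ndufb6: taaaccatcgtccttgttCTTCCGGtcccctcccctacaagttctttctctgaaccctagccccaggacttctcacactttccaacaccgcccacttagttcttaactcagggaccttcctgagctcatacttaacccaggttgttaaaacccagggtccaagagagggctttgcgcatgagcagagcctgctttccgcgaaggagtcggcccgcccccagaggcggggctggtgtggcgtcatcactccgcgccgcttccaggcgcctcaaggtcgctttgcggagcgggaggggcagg
Ndufs7: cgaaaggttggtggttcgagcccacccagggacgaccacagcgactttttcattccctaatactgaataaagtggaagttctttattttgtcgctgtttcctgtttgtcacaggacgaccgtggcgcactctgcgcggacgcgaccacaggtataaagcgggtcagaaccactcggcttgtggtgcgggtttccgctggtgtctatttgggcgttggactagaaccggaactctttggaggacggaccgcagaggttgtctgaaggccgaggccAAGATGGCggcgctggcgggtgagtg
Ndufs8: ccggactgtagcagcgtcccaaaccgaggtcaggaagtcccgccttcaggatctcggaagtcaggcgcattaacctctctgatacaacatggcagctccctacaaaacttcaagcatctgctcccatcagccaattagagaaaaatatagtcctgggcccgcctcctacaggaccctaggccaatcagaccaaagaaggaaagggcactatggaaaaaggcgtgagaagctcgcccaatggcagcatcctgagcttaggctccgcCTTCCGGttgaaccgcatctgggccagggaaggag
Ndufc2: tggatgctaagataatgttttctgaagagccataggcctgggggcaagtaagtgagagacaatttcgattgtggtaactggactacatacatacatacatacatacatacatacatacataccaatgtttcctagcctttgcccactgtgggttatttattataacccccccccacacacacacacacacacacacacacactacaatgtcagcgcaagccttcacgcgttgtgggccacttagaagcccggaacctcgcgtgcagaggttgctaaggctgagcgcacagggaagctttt
Ndufb8: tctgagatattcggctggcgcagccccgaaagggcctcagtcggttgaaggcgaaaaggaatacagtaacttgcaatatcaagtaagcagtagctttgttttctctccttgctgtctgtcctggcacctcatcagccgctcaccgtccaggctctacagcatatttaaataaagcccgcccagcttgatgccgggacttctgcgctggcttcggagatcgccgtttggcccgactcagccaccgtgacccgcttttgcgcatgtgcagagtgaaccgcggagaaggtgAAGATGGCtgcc

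The YY1 letters lay 24 bases after the annotated start of Ndufs7 and 38 after that of Ndufb8, and the ETS letters lay 15 bases after that of Ndufs8 and 232 before that of Ndufb6. Over the 39 windows, the NRF1 core was in 5 members (12.8%, against 2.71% of 32851 promoters of the same length), the ETS core in 5 (12.8% against 8.86%) and the YY1 core in 7 (17.9% against 2.75%). Any of the 3 was in 17 members (43.6%, against 13.3% of all promoters). A match is only a run of letters, and no binding was measured in these libraries.

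At E18.5, 10 of the 44 members were called lower in IVF ovaries and 0 higher, beside 2.75% of the 16415 genes tested that were called lower, and 41 had a fold change below 0. The members' median log2 fold change was -0.42, with a range from -0.75 to 0.20, while the median over all genes was 0.00. The unadjusted p was under 0.05 for 30 members, each of them lower, and for 24.1% of all genes. In whole tissue, fewer cells of a type and less RNA per cell cannot be told apart.

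**Figure D1:**
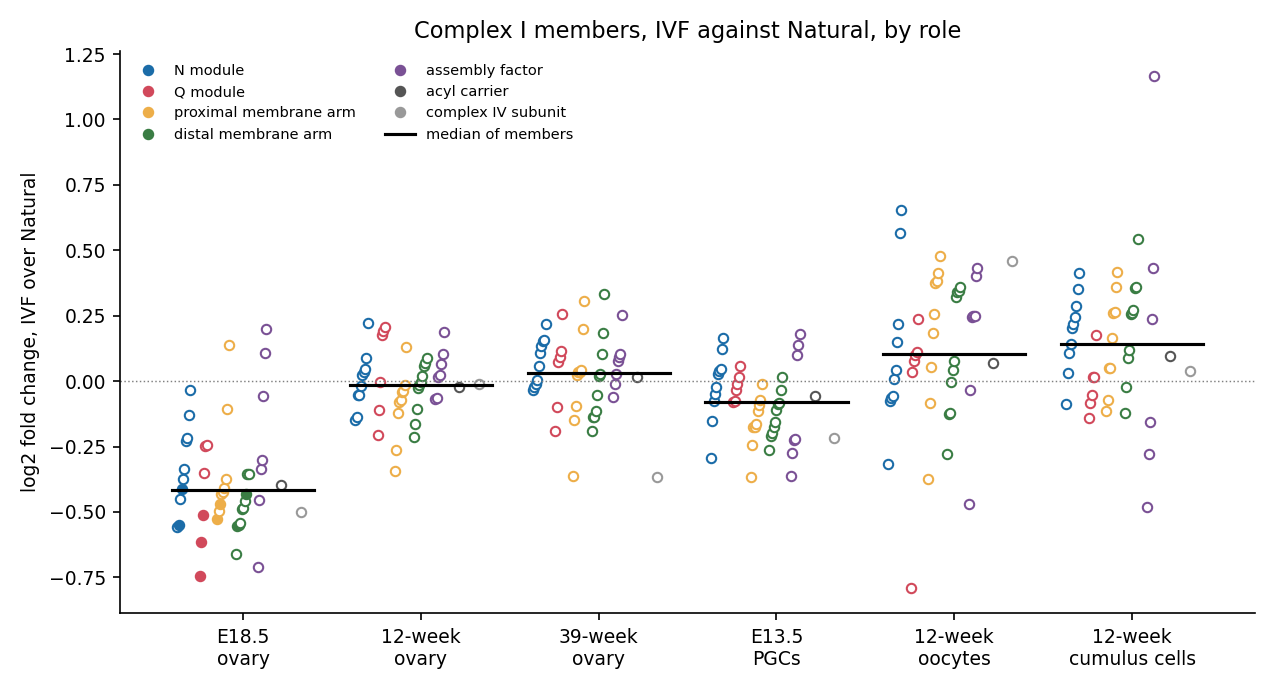
Each point is 1 member's log2 fold change, IVF over Natural (vertical axis), in 1 of the 6 tested comparisons, arranged by role, with filled points for an adjusted p under 0.05, colours for the roles, and a bar for the median of all members in that comparison. The filled points are the 10 members lower at E18.5, and the points of the other comparisons lie on both sides of 0.

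In the N module, which holds the NADH site, 2 of 10 members were called lower at E18.5. Ndufa2, a small accessory subunit of the NADH-oxidising arm, was at 71.7, 96.6, 82.4 and 110.0 CPM in Natural 1 to 4, and the IVF libraries ran from 55.5 through a median of 58.8 to 74.6 CPM. The ranges overlapped, since Natural 1 lay below the highest IVF library (log2 fold change -0.55, SE 0.13, adjusted p = 0.0304). Ndufa6, an accessory subunit of the LYR family that binds the acyl carrier protein, was at 65.2, 68.4, 55.8 and 79.7 CPM in Natural 1 to 4, and the IVF libraries ran from 44.8 through a median of 51.2 to 53.5 CPM. Each Natural library lay above each IVF library (log2 fold change -0.41, SE 0.11, adjusted p = 0.0492). The core subunits Ndufv1, which binds FMN and NADH, and Ndufs1, which carries iron-sulfur clusters, did not pass the test, with log2 fold changes of -0.34 (adjusted p = 0.176) and -0.03 (adjusted p = 0.892). Their CPM ranges were 126 to 203 in Natural and 106 to 145 in IVF for Ndufv1, and 49.7 to 65.2 and 46.4 to 64.3 for Ndufs1.

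The Q module had 3 of its 6 members called lower. Ndufs8, which carries a pair of iron-sulfur clusters on the way to ubiquinone, was at 51.9, 62.8, 63.4 and 71.5 CPM in Natural 1 to 4, and the IVF libraries ran from 38.5 through a median of 45.0 to 48.0 CPM. The groups did not overlap (log2 fold change -0.51, SE 0.12, adjusted p = 0.0263). Ndufs7, which carries the last cluster before ubiquinone, was at 57.3, 85.0, 68.6 and 88.2 CPM in Natural 1 to 4, and the IVF libraries ran from 43.4 through a median of 47.2 to 59.2 CPM. Natural 1 fell within the IVF range (log2 fold change -0.61, SE 0.14, adjusted p = 0.0261). Ndufa5, an accessory subunit of this module, had the largest fold change of the members, at 23.0, 33.6, 20.6 and 37.6 CPM in Natural 1 to 4, and the IVF libraries ran from 15.1 through a median of 16.6 to 20.1 CPM. The lowest Natural library, Natural 3, lay just above the highest IVF library (log2 fold change -0.75, SE 0.18, adjusted p = 0.0302).

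Of the proximal membrane arm, 2 of 9 members were called lower. Ndufc2, a subunit at the foot of this arm, was at 54.6, 59.4, 57.7 and 67.2 CPM in Natural 1 to 4, and the IVF libraries ran from 35.5 through a median of 44 to 46.4 CPM, and the groups did not overlap (log2 fold change -0.47, SE 0.11, adjusted p = 0.0278). Ndufa3, a small membrane subunit, was at 43.5, 54.5, 48.2 and 66.7 CPM in Natural 1 to 4, and the IVF libraries ran from 31.0 through a median of 37.9 to 40.1 CPM. Its groups did not overlap either (log2 fold change -0.53, SE 0.13, adjusted p = 0.0350).

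The distal membrane arm had 3 of 10 members called lower, and each of the 10 had a fold change below 0. Ndufb11, an X-linked membrane subunit, had the lowest p of the members. It was at 96.0, 115, 113 and 131 CPM in Natural 1 to 4, and the IVF libraries ran from 68.9 through a median of 78.0 to 85.1 CPM, and the groups did not overlap (log2 fold change -0.55, SE 0.11, adjusted p = 0.0159). Ndufb6, a membrane subunit of the same arm, was at 43.9, 55.8, 47.0 and 59.0 CPM in Natural 1 to 4, and the IVF libraries ran from 31.4 through a median of 34.7 to 39.6 CPM, with no overlap (log2 fold change -0.55, SE 0.12, adjusted p = 0.0236). Ndufb8 is the subunit often used as the marker of assembled complex I in protein blots. It was at 79.5, 84.8, 78.2 and 97.5 CPM in Natural 1 to 4, and the IVF libraries ran from 57.4 through a median of 62.9 to 68.3 CPM, again without overlap (log2 fold change -0.43, SE 0.10, adjusted p = 0.0288). Ndufb3, a further subunit of this arm, lay just outside the threshold (log2 fold change -0.54, adjusted p = 0.0510).

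The 7 assembly factors gave 0 calls at E18.5. Of them 5 had a fold change below 0, and their median was -0.30. Ndufaf1, which acts in building the membrane arm, had the highest fold change of the members and did not pass the test, at 13.4, 17.6, 18.4 and 15.5 CPM in Natural 1 to 4, and the IVF libraries ran from 16.1 through a median of 18.7 to 21.7 CPM (log2 fold change 0.20, SE 0.15, adjusted p = 0.421). Ndufab1 (log2 fold change -0.40) and Ndufa4 (-0.50) also did not pass. Over all 44 members, 9 had groups whose CPM ranges did not overlap, each lower in IVF, beside 4.33% of all genes. Natural 4 was the highest of the 10 libraries for each of the 10 members called.

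**Figure D2:**
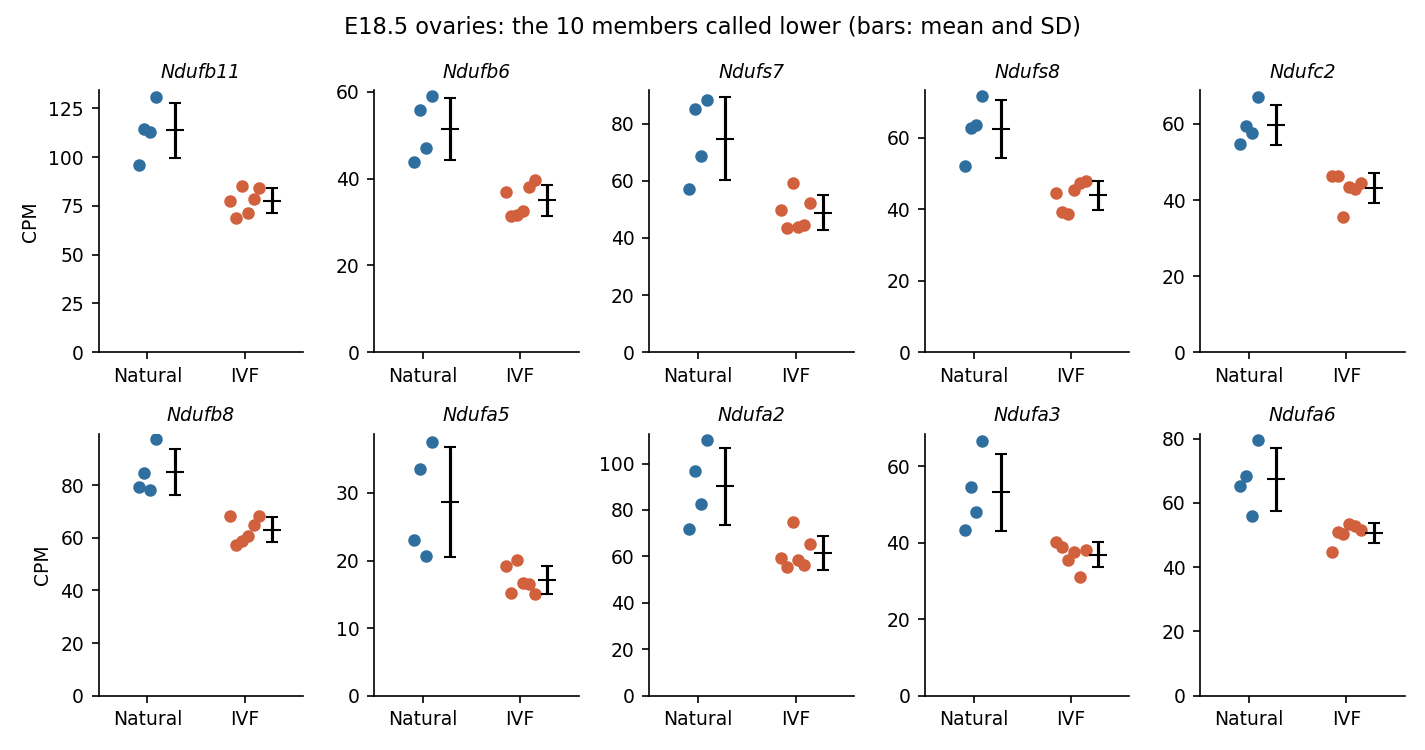
CPM (vertical axis) of the 10 members called lower at E18.5, with 1 point per library for the 4 Natural and 6 IVF ovaries and bars for the mean and SD of each group. The IVF points lie below the Natural points for 8 of the 10, and for Ndufa2 and Ndufs7 the lowest Natural point lies within the IVF range.

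The number of calls rested on single libraries, as it was 1 without Natural 2, Natural 4, IVF 2 or IVF 4, from 3 to 6 without IVF 1, IVF 5 or IVF 6, 16 without IVF 3 and 21 without Natural 1, and Ndufb11 was the member called under each of the 10 omissions. DESeq2's Wald test called 19 members lower, and with library totals alone edgeR called 5.

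Transcript length moved with the E18.5 result. Among all genes with a length, the median log2 fold change was -0.24 for transcripts of up to 600 bases (13.0% called lower), -0.29 for 600 to 1000 (11.5%), -0.17 for 1000 to 2000 (4.87%), -0.02 for 2000 to 4000 (1.39%) and 0.17 above 4000 bases (0.41%). The members are short, with a median transcript of 939.5 bases and a range from 419 to 3632. Of the 24 members with up to 1000 bases, 10 were called and the median log2 fold change was -0.50. Of the 20 longer members, 0 were called and the median was -0.32. When each library's trend with length was removed, an alternative chosen after seeing the data, 0 members passed the test, 13 had an unadjusted p under 0.05 and the members' median became -0.21.

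**Figure D3:**
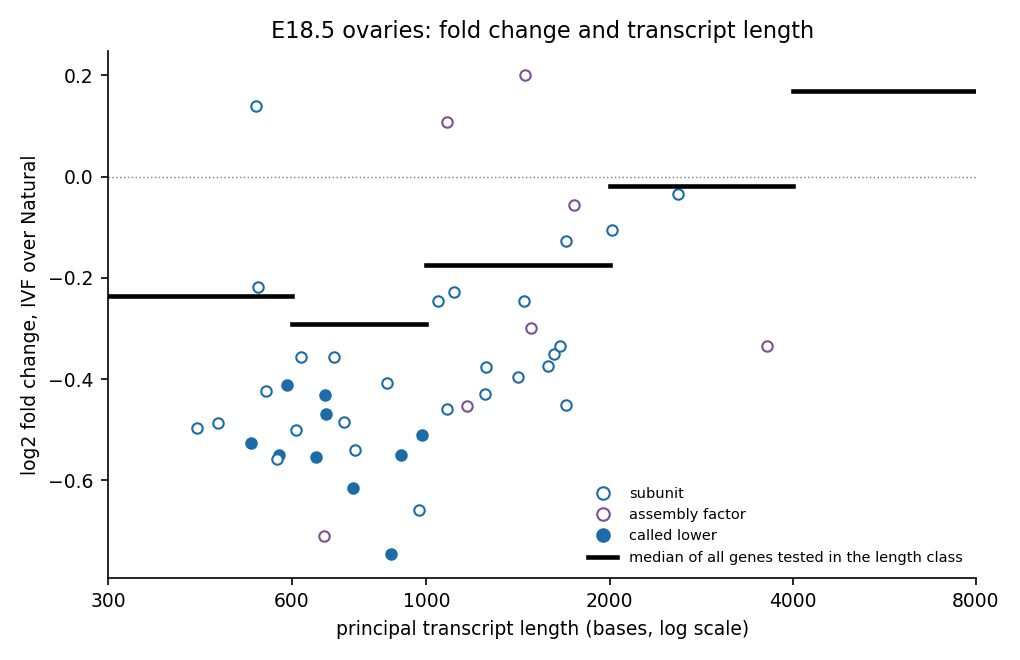
The log2 fold change at E18.5, IVF over Natural (vertical axis), against transcript length in bases on a log axis, with the members as points and the median of all genes in each length class as lines, the outermost classes drawn to the edges of the plot. Filled points are members called lower, all at 1000 bases or less, and the class medians go from -0.24 to 0.17.

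Markers of other cell types differed between the same libraries. The summed CPM of 6 erythroid genes ran from 598.6 to 1599.9 in Natural and from 1601 to 4582 in IVF ovaries, and 2 of the 6 were called higher (Hbb-bs, a globin, and Alas2, of heme synthesis). Of 8 oocyte genes, 3 were called lower (the zona pellucida genes Zp1 and Zp3, and Gdf9), with a median log2 fold change of -1.74 and sums of 121 to 481 in Natural and 124 to 294 in IVF, while 2 of the 8 lay above 0. Of 5 tested primordial germ cell genes, 2 of which are also on the oocyte list, 1 was called lower (Pou5f1) and the median was 0.26. Of 3 endothelial genes, each below 0, 1 was called lower (Pecam1). Of 4 theca and luteal genes, 3 were called higher (Cyp17a1, Star and Lhcgr), with sums of 9.07 to 13.5 and 16.4 to 24.4. Their part in the members' result was not tested.

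Of the genes of the other respiratory complexes, some were called lower at E18.5 and none higher, as counted on lists drawn up with earlier results of these data known. Complex IV, cytochrome c oxidase, had 7 of 10 genes called lower (median log2 fold change -0.55), among them Cox6c (-0.72) and Cox4i1 (-0.54). Complex V, the ATP synthase, had 8 of 15 called lower (median -0.44), complex III 2 of 9 (Uqcr10 and Uqcrq) and complex II 1 of 4 (Sdhc). Of these 38 genes 0 were called higher. The part of transcript length in the values of these complexes was not tested. The 9 tested complex I genes whose names fall outside the rule gave 0 calls (median -0.06), as did the 5 tested complex I subunits of mitochondrial DNA (median -0.24) and 7 regulators of these genes' transcription (median 0.21). The complex I subunits of mitochondrial DNA took 0.193% of all counts in IVF 3. They took 0.518% to 0.725% in the other IVF and 0.449% to 0.670% in the Natural libraries. The part of IVF 3 in their median was not tested.

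In the adult ovaries, PGCs, 12-week oocytes and cumulus cells DESeq2's Wald test, like edgeR's, called 0 members. In 12-week ovaries 0 of 44 members were called, beside 0.00567% of 17628 genes. The members' median log2 fold change was -0.01, with 26 below 0, and 2 members had an unadjusted p under 0.05, as did 2544 genes. Those 2 were also the members whose groups did not overlap, both lower in IVF, beside 3.64% of all genes. Ndufa11, a membrane arm subunit that stabilises the join of the arms, was at 49.3, 52.5, 47.5 and 59.1 CPM in Natural 1 to 4 and at 41.2, 34.3, 43.8, 46.0 and 41.1 CPM in IVF 1 to 5. Each IVF library was lower than each Natural library, and the difference did not pass the test (log2 fold change -0.34, SE 0.11, adjusted p = 0.216). Ndufb7, of the distal arm, was at 69.8, 77.3, 66.3 and 77.2 CPM in Natural and 65.7, 57.2, 64.6, 60.9 and 64.7 CPM in IVF ovaries (log2 fold change -0.21, SE 0.08, adjusted p = 0.273). The highest fold change was that of Ndufs4, an N module subunit whose loss in mice causes a Leigh-like encephalopathy. Its levels overlapped widely, at 36.4, 31.2, 26.3 and 32.1 CPM in Natural and 39.3, 28.7, 40.0, 43.6 and 33.1 CPM in IVF ovaries (log2 fold change 0.22, SE 0.14, adjusted p = 0.493). The core subunits Ndufv1 and Ndufs1 had log2 fold changes of 0.03 and 0.09. Summed markers of oviduct and epithelium ran from 3390.1 to 7639 CPM in Natural and from 85.5 to 3050 in IVF libraries, and their part in these values was not tested.

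In 39-week ovaries 0 of 44 members were called, beside 0.262% of 17186 genes. The median log2 fold change was 0.03, with 28 members above 0, and 4 members had an unadjusted p under 0.05 (2 higher and 2 lower), as did 3303 genes. Ndufb5, a distal arm subunit, was at 48.4, 42.1, 44, 33.7 and 36.0 CPM in Natural 1 to 5 and at 61.9, 49.2, 55.2, 43.9 and 47.4 CPM in IVF 1 to 5. The groups overlapped, and this highest fold change of the members did not pass the test (log2 fold change 0.33, SE 0.13, adjusted p = 0.201). Ndufa4, the complex IV subunit, was at 145, 110.5, 87.8, 98.4 and 90.8 CPM in Natural and 75.8, 83.4, 99.0, 77.0 and 77.8 CPM in IVF ovaries. Natural 1 was the highest library, the groups overlapped, and this lowest fold change did not pass either (log2 fold change -0.37, SE 0.14, adjusted p = 0.215). Ndufv1 and Ndufs1 had log2 fold changes of 0.11 and -0.02. The 5 tested complex I subunits of mitochondrial DNA each had a fold change below 0 (median -0.68) with 0 called. The oviduct and epithelium markers summed to between 51.2 and 219.8 CPM in Natural and between 55.6 and 8717 CPM in IVF libraries, and their part was not tested.

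Of all counts at E18.5, the 44 members took 0.184% to 0.271% in Natural and 0.160% to 0.185% in IVF libraries. At 12 weeks the shares were 0.248% to 0.305% and 0.249% to 0.295%, and at 39 weeks 0.222% to 0.298% and 0.239% to 0.275%. PGCs gave them the largest share, 0.426% to 0.617% in Natural and 0.433% to 0.526% in IVF pools. Oocytes gave them the smallest, 0.0316% to 0.0403% over the 12-week sets of both groups and 0.0214% to 0.0511% over the 39-week oocytes. In cumulus pools the share was 0.213% to 0.264% in Natural and 0.156% to 0.341% in IVF, with IVF 3 the lowest.

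**Figure D4:**
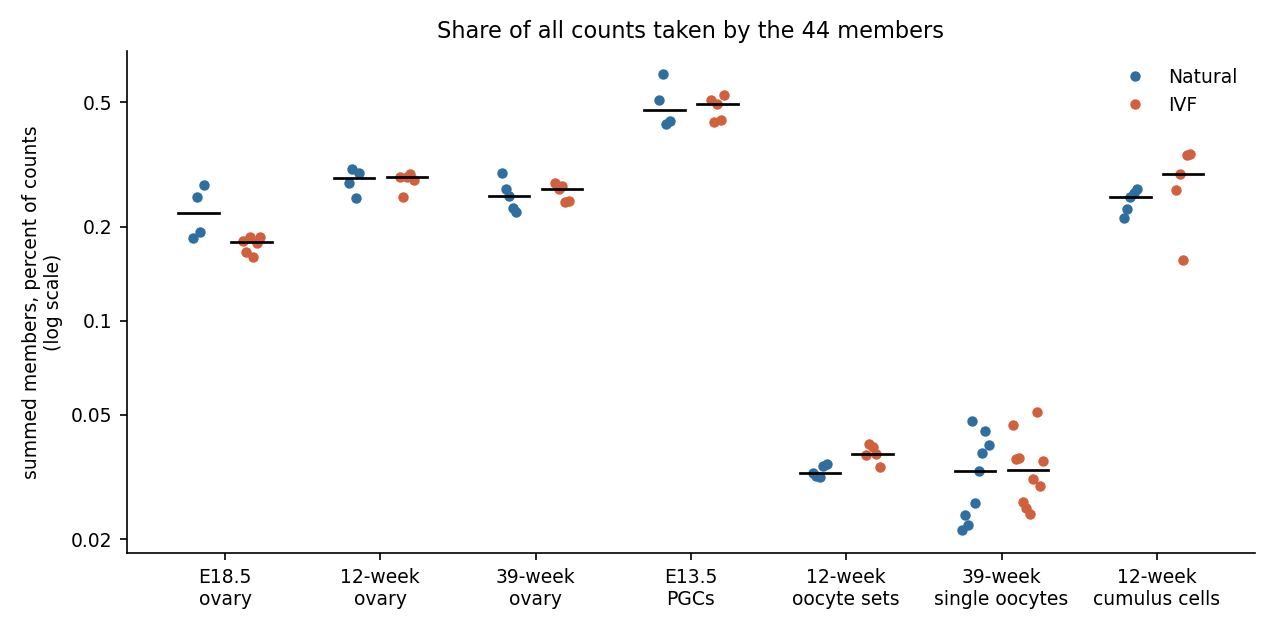
The members' summed counts as a percentage of all counts (vertical axis, log scale), 1 point per library or oocyte set, by table and group, with a bar at each median. At E18.5 the 4 Natural points span 0.184% to 0.271% and the 6 IVF points 0.160% to 0.185%, and the oocyte points lie near 0.03%.

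In E13.5 PGCs, pools of germ cells from the fetal gonad, 0 of 44 members were called, beside 0% of 12763 genes. The unadjusted p was under 0.05 for 0 members and 349 genes. The median log2 fold change was -0.08, with 33 members below 0, and each of the 9 proximal arm members was below 0. Over all genes the median was -0.04. It was -0.14 for transcripts of up to 600 bases and -0.11 for those of 600 to 1000 bases. Ndufa11 was at 125, 108, 117 and 100.5 CPM in Natural 1 to 4 and at 107, 91.8, 84.5, 100.4 and 92.2 CPM in IVF 1 to 5, with overlapping groups (log2 fold change -0.24, SE 0.16, adjusted p = 1.00). Ndufa1, an X-linked membrane subunit, was at 51.7, 113, 46.8 and 33.5 CPM in Natural and 40.9, 51.0, 53.4, 36.9 and 55.7 CPM in IVF pools. Natural 2 lay far above the other libraries, and the fold change was the lowest of the members (log2 fold change -0.37, SE 0.31, adjusted p = 1.00). Ndufaf7, an assembly factor with a methyltransferase fold, had the highest fold change, with 19.0, 15.7, 28.6 and 24.7 CPM in Natural and 26.4, 24.9, 21.6, 19.4 and 31.9 CPM in IVF pools (log2 fold change 0.18, SE 0.25, adjusted p = 1.00).

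In 12-week oocytes, summed by set, 0 of 44 members were called, beside 0.0277% of 14444 genes, and the unadjusted p was under 0.05 for 0 members and 963 genes. The median log2 fold change was 0.11, with 31 members above 0, against 0.02 over all genes and 0.09 over genes of similar mean CPM. Among all genes, transcripts of up to 600 bases had a median of 0.21 and those of 600 to 1000 bases 0.12. Ndufa9, a Q module subunit with an NADPH-binding fold, was at 1.11, 0.997, 1.15, 1.41 and 1.58 CPM in the Natural sets and 0.812, 1.24, 0.463, 0.630 and 0.455 CPM in the IVF sets. Of the IVF sets 1 lay within the Natural range (log2 fold change -0.79, SE 0.38, adjusted p = 0.768). Ndufb8 was at 10.0, 9.10, 7.58, 11.6 and 8.12 CPM in Natural and 9.16, 11.6, 11.3, 13.1 and 14.5 CPM in IVF sets, with overlap (log2 fold change 0.36, SE 0.19, adjusted p = 0.776). The highest fold change was that of Ndufv3, a small N module subunit, with 0.843, 0.153, 0.327, 1.14 and 1.77 CPM in Natural and 0.704, 1.72, 1.93, 1.75 and 0.682 CPM in IVF sets (log2 fold change 0.65, SE 0.58, adjusted p = 0.894). No first name field occurs in both groups, so that field and the group cannot be told apart. Within each group the sets share first fields, and the fit takes them as independent.

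Single 12-week oocytes split the members into a few found in every cell and many near the floor. Ndufa10, a membrane arm subunit with a nucleoside kinase fold, had counts in each of the 76 oocytes, with medians of 83.6 CPM in Natural and 84.8 CPM in IVF. Ndufaf4, an assembly factor of the early membrane-bound intermediate, had medians of 70.8 and 75.7 CPM. Ndufaf1 was at 0 in 55 of the 76, Ndufb4 in 49 and Ndufb7 in 44.

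At 39 weeks the labels tie no oocyte to an animal, so each group was 1 sum of counts and no test was made. Of the 6130 genes with at least 10 CPM in either group, 19.4% were over 1.5-fold higher in IVF and 22.7% over 1.5-fold lower. Of the 8 members with that level, 4 were past 1.5-fold higher and 0 lower, a count that the filter in part sets, since Ndufaf7 and Ndufaf2 reached it in IVF alone and Ndufb6 in Natural alone. Of the 5 with that level in both groups, Ndufa10 and Ndufa4 were past 1.5-fold higher. The 19.4% and 22.7% belong to the filter on either group, and no share of all genes was taken for both. The other 36 members were under 10 CPM in both groups. Ndufa10 was at 64.6 CPM (95% Poisson interval 63.1 to 66.1) in Natural and 105 CPM (104 to 107) in IVF oocytes, a ratio of 1.63. Single oocytes ran from 23.9 through a median of 73.7 to 95.8 CPM in Natural and from 46.1 through 94.4 to 141 CPM in IVF, so the groups overlapped. Ndufaf7 was at 5.74 CPM (95% Poisson interval 5.30 to 6.21) in Natural and 11.2 CPM (10.8 to 11.7) in IVF oocytes, a ratio of 1.96 and the largest of the 8. Ndufaf2, an assembly factor of the late N module step, was at 7.64 CPM (95% Poisson interval 7.13 to 8.18) in Natural and 12.3 CPM (11.8 to 12.9) in IVF oocytes (ratio 1.62). Ndufa4 had a ratio of 1.56, Ndufab1 of 1.42 and Ndufb8 of 1.02. Below 1 were Ndufb6, at 14.2 CPM (95% Poisson interval 13.5 to 14.9) in Natural and 9.96 CPM (9.51 to 10.4) in IVF oocytes (ratio 0.704), and Ndufaf4, at 71.0 CPM (95% Poisson interval 69.5 to 72.6) in Natural and 52.9 CPM (51.9 to 54.0) in IVF oocytes (ratio 0.745). The intervals cover counting error only, and with the mean of single-oocyte CPM in place of the sum, 1 member was past 1.5-fold higher. Without oocyte Natural 6, Natural 9 or IVF 1 the 4 became 2, and 1 member was past 1.5-fold lower without Natural 1, 2 or 3 or IVF 1, 8 or 9.

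In 12-week cumulus cells, the somatic cells around the oocyte, 43 members were tested and Ndufaf2 was too low. Of the 43, 0 were called, beside 0.00973% of 10280 genes, while 3 had an unadjusted p under 0.05, each higher in IVF, as did 6.08% of genes. The median log2 fold change was 0.14, with 32 members above 0, against 0.00 over all genes. Among all genes, transcripts of up to 600 bases had a median of 0.17 and those of 600 to 1000 bases 0.10. Ndufaf1 was at 5.31, 4.73, 10.5, 11.9 and 5.16 CPM in Natural 1 to 5 and at 20.4, 10.2, 15.5, 18.4 and 18.3 CPM in IVF 1 to 5. Only IVF 2 lay within the Natural range, and the difference did not pass the test (log2 fold change 1.16, SE 0.31, adjusted p = 0.389). Ndufa7, an N module subunit, was at 84.5, 83.0, 54.0, 49.1 and 49.1 CPM in Natural and 85.9, 82.2, 46.5, 106 and 99.5 CPM in IVF pools, with wide overlap (log2 fold change 0.41, SE 0.17, adjusted p = 0.739). The lowest fold change was that of Ndufaf3, an assembly factor that works with Ndufaf4 (log2 fold change -0.48, SE 0.27, adjusted p = 0.848). It was at 14.0, 15.9, 10.8, 6.84 and 7.22 CPM in Natural and 5.63, 5.95, 3.44, 13.8 and 12.3 CPM in IVF pools. The pools came as libraries named in words (Natural 1 and 2, IVF 4 and 5) and libraries named by numbers (the other six), a difference the fit took up as a covariate. In the word-named libraries alone, 5 members were called higher, beside 2.58% of genes called higher there (Ndufaf1, log2 fold change 1.87, adjusted p = 0.00432, with Ndufa6, Ndufa12, Ndufb5 and Ndufs6). In the number-named libraries alone 0 were called, and that difference between the sets was not tested. Natural 5 bears a name that shares its first fields with an IVF set of oocytes, and without it 0 members were called.

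Across the 6 tested comparisons, 0 members were lower in IVF in all 6, 1 was higher in all 6, and 3 were lower in at least 5. The level of a member per kilobase of transcript varied with its role. In Natural E18.5 ovaries the median was 8.79 CPM per kilobase for assembly factors and 79.6 for distal arm subunits, with Ndufa2 (157.6) and Ndufa4 (157.2) the highest and Ndufaf6 (4.14) the lowest. In Natural 12-week oocytes Ndufa10 (42.8), Ndufa4 (32.1) and Ndufaf4 (25.1) were the highest and Ndufb4 (0.193) the lowest. Of the 44 members, 17 share at least 100 bases at 95% identity or more with another annotated gene, by overlap or as a copy, and their counts are uncertain. They include Ndufb11 (456 bases shared with Gm6444), Ndufb6 (257 with Smim27) and Ndufb8 (144 with Gm20538). Also among them are Ndufs3 (792 with Gm12251), Ndufb4 (390 with Ndufb4c), Ndufs6 (348 with Ndufs6b) and Ndufb5 (216 with Mrpl47).

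From E18.5 to 12 weeks, 24 of 44 members rose in Natural ovaries in a joint fit of the 3 ages, beside 25.3% of 19724 genes, and 0 were called lower, beside 24.3%. The members' median log2 difference was 0.36 and that of all genes 0.01. The largest rise was that of Ndufaf3, from 12.0, 12.5, 10.0 and 14.6 CPM at E18.5 to 25.9, 28.1, 27.9 and 31.2 CPM at 12 weeks. No fetal library reached an adult one (log2 difference 1.20, SE 0.17, adjusted p = 1.46e-06). Ndufc1, of the proximal arm, went from 33.1, 40.8, 34.1 and 46.2 CPM to 62.3, 85.7, 62.1 and 69.5 CPM, again without overlap (log2 difference 0.86, SE 0.16, adjusted p = 8.95e-05). Ndufs5, of the same arm, went from 7.04, 7.82, 6.90 and 13.3 CPM to 14.0, 15.3, 9.87 and 23.1 CPM, with overlap (log2 difference 0.82, SE 0.29, adjusted p = 0.0207). The lowest differences were those of Ndufaf6 (-0.15), Ndufaf5 (-0.05) and Ndufv1 (-0.03), and none of these passed the test. By role, 6 of 9 proximal arm, 5 of 10 distal arm, 6 of 10 N module and 4 of 6 Q module members were called higher, and 2 of 7 assembly factors.

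From 12 to 39 weeks 0 members were called higher in Natural ovaries and 1 lower, beside 11.6% of genes called lower, and the members' median was -0.07. The member called was Ndufc2, which went from 88.8, 91.0, 77.0 and 75.9 CPM to 68.1, 66.9, 62.7, 51.7 and 61.1 CPM with no overlap (log2 difference -0.42, SE 0.12, adjusted p = 0.0151). Without 12-week Natural 1 or 2 the call was lost, and without E18.5 Natural 1, 39-week Natural 1 or 39-week IVF 1 a further member was called. Ndufa11 (-0.47, adjusted p = 0.0656), the lowest difference, and Ndufa5 (-0.33, adjusted p = 0.151) did not pass. The highest differences, those of Ndufs8 (0.21), Ndufb11 (0.16) and Ndufc1 (0.15), did not pass. With the trend with transcript length removed, 4 members were called higher, 0 lower, and the median was 0.12.

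The IVF difference at E18.5 was then set against that at the adult ages by an interaction term, which gives the log2 fold change at the adult age minus that at E18.5. At 12 weeks against E18.5, 1 member was called higher, beside 0.274% of genes, while 22 had an unadjusted p under 0.05, as did 2766 of 19724 genes, and the median was 0.41, against 0.01 over all genes. This was Ndufs8, at 58.5 ± 5.49 CPM (SD, n = 4) in Natural and 40.3 ± 3.52 CPM (SD, n = 6) in IVF at E18.5. At 12 weeks it was at 101 ± 9.88 CPM (SD, n = 4) in Natural and 116 ± 13.5 CPM (SD, n = 5) in IVF ovaries. The IVF effect differed between these ages by the interaction test (log2 difference 0.74, SE 0.14, adjusted p = 0.0390). The call was lost without any 1 of 8 libraries, namely E18.5 IVF 2 or Natural 4, 12-week IVF 1 or 3 or Natural 1, 3 or 4, or 39-week Natural 5.

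At 39 weeks against E18.5, 7 members were called higher, beside 5.1% of genes, and the median was 0.45, against 0.07 over all genes. They included Ndufb5, Ndufs6, Ndufs4, Ndufs8, Ndufb8 and Ndufs3, of the distal arm and the N and Q modules. Ndufb5 was at 44.9 ± 7.19 CPM (SD, n = 4) in Natural and 32.0 ± 4.5 CPM (SD, n = 6) in IVF at E18.5, and at 44.4 ± 6.39 CPM (SD, n = 5) and 55.4 ± 6.18 CPM (SD, n = 5) at 39 weeks (log2 difference 0.81, SE 0.17, adjusted p = 0.00443). Lower in IVF at E18.5, it was higher at 39 weeks, without passing the test at either age on its own. Ndufs6, a zinc-binding N module subunit, was at 42.1 ± 10.2 CPM (SD, n = 4) in Natural and 28.1 ± 4.76 CPM (SD, n = 6) in IVF at E18.5, and at 40.9 ± 6.23 CPM (SD, n = 5) and 45.0 ± 2.54 CPM (SD, n = 5) at 39 weeks (log2 difference 0.72, SE 0.19, adjusted p = 0.0230). Ndufs4 was at 24.3 ± 5.70 CPM (SD, n = 4) in Natural and 17.4 ± 1.91 CPM (SD, n = 6) in IVF at E18.5, and at 26.0 ± 1.39 CPM (SD, n = 5) and 29.9 ± 4.09 CPM (SD, n = 5) at 39 weeks (log2 difference 0.69, SE 0.19, adjusted p = 0.0275). Ndufb8 was at 79.9 ± 7.22 CPM (SD, n = 4) in Natural and 58.0 ± 4.21 CPM (SD, n = 6) in IVF at E18.5, and at 114 ± 16.9 CPM (SD, n = 5) and 121 ± 8.97 CPM (SD, n = 5) at 39 weeks (log2 difference 0.55, SE 0.14, adjusted p = 0.0183). In Ndufs6, Ndufs4 and Ndufb8 the IVF mean was below the Natural mean at E18.5 and above it at 39 weeks. Ndufs3, a core Q module subunit, was at 50.8 ± 7.18 CPM (SD, n = 4) in Natural and 42.0 ± 2.90 CPM (SD, n = 6) in IVF at E18.5, and at 69.3 ± 8.65 CPM (SD, n = 5) and 82.0 ± 10.0 CPM (SD, n = 5) at 39 weeks (log2 difference 0.52, SE 0.16, adjusted p = 0.0450). For Ndufs8 the test gave log2 difference 0.60, SE 0.14, adjusted p = 0.00902. The differences at the 2 adult ages share the E18.5 libraries, so they are not independent. Between 39 and 12 weeks the IVF differences gave 0 members called, beside 2.71% of genes, and 1 with an unadjusted p under 0.05. The 7 became 2 without 39-week Natural 5, 3 without E18.5 Natural 4, 11 without 12-week IVF 4, 15 without E18.5 Natural 1, 16 without E18.5 IVF 3 and 21 without 39-week Natural 1, and 2 with the length trend removed (median 0.28).

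Between cell types, most members were far lower in 12-week oocytes than in the PGCs or cumulus cells. In the Natural contrasts of a joint fit of both groups' libraries, 40 of 44 members were called lower in oocytes than in PGCs, beside 39.4% of 15792 genes, and 3 were called higher, beside 37.4%. The members' median log2 difference was -3.77, and that of all genes -0.17. Against cumulus cells 38 members were called lower, beside 37.6% of genes, and 4 higher, beside 41.9%, with medians of -3.25 and 0.13. Of the cumulus pools, 6 share the first fields of their names with a set of oocytes, 5 of them within the same group, and the fit takes them as independent. Without those 6, an alternative chosen after seeing the data, 38 were called lower and 4 higher (median -3.46). CPM here are those of the joint fit and differ in scale from the values within a table.

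The members called higher in oocytes than in PGCs were 2 of 7 assembly factors and 1 of 9 proximal arm members. In the same roles 4 assembly factors and 8 proximal arm members were called lower. Against cumulus cells, 2 assembly factors, 1 proximal arm member and Ndufab1 were called higher. There 3 assembly factors and 8 proximal arm members were called lower. Ndufaf4 was at 40.7, 27.1, 58.2 and 41.0 CPM in the 4 PGC pools, 174, 208, 141, 130.2 and 110.1 CPM in the 5 oocyte sets and 0.901, 6.79, 7.98, 4.55 and 4.42 CPM in the 5 cumulus pools. The oocyte sets lay above all other libraries (log2 difference 1.87, SE 0.36, adjusted p = 2.93e-05 against PGCs, and log2 difference 4.94, SE 0.39, adjusted p = 1.32e-12 against cumulus cells). Ndufa10 was at 60.8, 48.5, 55.4 and 51.4 CPM in the 4 PGC pools, 149, 127, 144, 169.5 and 134 CPM in the 5 oocyte sets and 25.0, 32.7, 50.2, 32.7 and 34.8 CPM in the 5 cumulus pools. It too was without overlap (log2 difference 1.42, SE 0.23, adjusted p = 1.99e-06 against PGCs, and log2 difference 2.04, SE 0.22, adjusted p = 7.26e-10 against cumulus cells). Ndufaf2 was at 12.3, 11.2, 10.2 and 7.78 CPM in the 4 PGC pools, 22.4, 23.6, 28.7, 27.4 and 23.5 CPM in the 5 oocyte sets and 3.15, 1.27, 2.66, 3.31 and 2.32 CPM in the 5 cumulus pools (log2 difference 1.28, SE 0.36, adjusted p = 0.00209 against PGCs, and log2 difference 3.30, SE 0.38, adjusted p = 3.7e-09 against cumulus cells). Ndufab1, the acyl carrier protein, lay between the other cells, below PGCs and above cumulus cells (log2 difference 0.87, SE 0.27, adjusted p = 0.00525 against the latter).

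Every N module and Q module member and each distal arm subunit was called lower in oocytes in both contrasts. Ndufb7 fell furthest in both, at 93.3, 77.7, 57.5 and 43.6 CPM in the 4 PGC pools, 0.394, 0.338, 0.541, 0.924 and 1.24 CPM in the 5 oocyte sets and 84.3, 102, 36.3, 26.1 and 36.2 CPM in the 5 cumulus pools (log2 difference -6.59, SE 0.61, adjusted p = 5.2e-11 against PGCs, and log2 difference -6.33, SE 0.59, adjusted p = 5.54e-11 against cumulus cells). Ndufa7 was at 105, 38.7, 61.1 and 57.1 CPM in the 4 PGC pools, 1.51, 0.592, 1.26, 0.539 and 2.48 CPM in the 5 oocyte sets and 78.9, 81.9, 58.7, 51.9 and 50.1 CPM in the 5 cumulus pools. Its differences were -5.66 against PGCs and -5.63 against cumulus cells. Ndufaf1 was lower than in PGCs by log2 difference -5.80, SE 0.58, adjusted p = 3.55e-10, and Ndufa5 than in cumulus cells by log2 difference -5.61, SE 0.38, adjusted p = 4.33e-14. With library totals alone, without TMM, the median of all genes shifted to -1.87 against PGCs and -0.55 against cumulus cells. Under that scaling Ndufaf2 (-0.40) and Ndufa10 (-0.26) lay below PGCs and 0 members were called higher than in PGCs, so the direction of these 2 depends on the scaling.

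**Figure D5:**
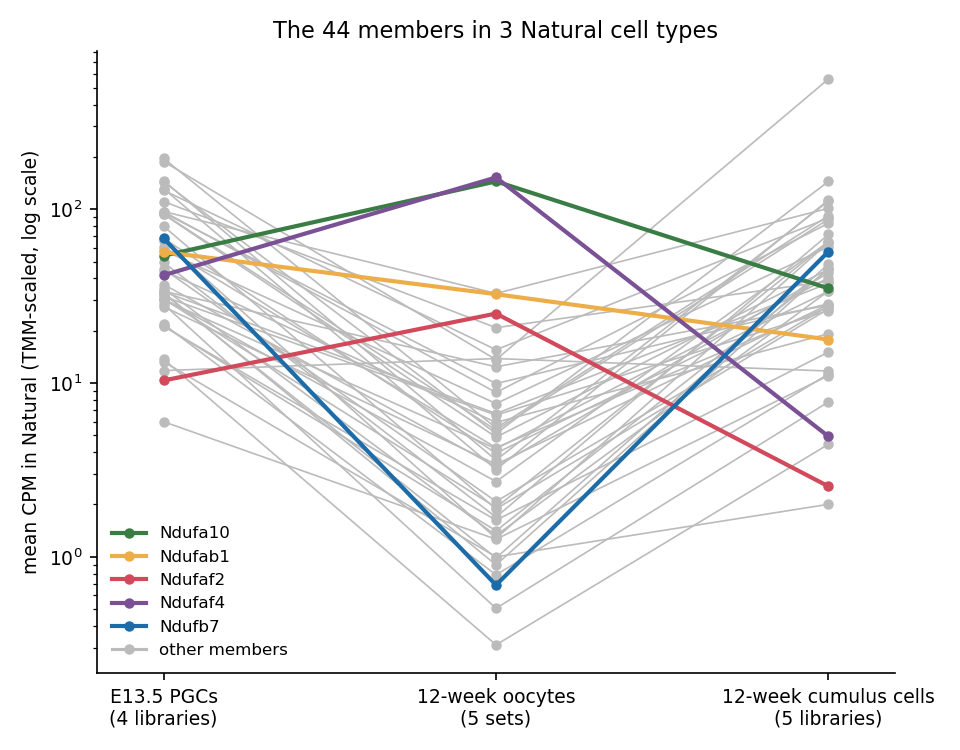
Mean CPM of each member in Natural PGCs, 12-week oocytes and 12-week cumulus cells on the joint scale (log axis), with a line per member. Ndufaf4, Ndufa10 and Ndufaf2 peak in oocytes, as does Ndufaf7 by a small margin. Ndufab1 lies between the other cells there, and most other lines drop, Ndufb7 to 0.687 CPM.

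Of the other complexes, 15 of 15 complex V genes were called lower in oocytes in each contrast, 9 of 10 of complex IV, 8 of 9 of complex III and 3 of 4 of complex II. On the TMM scale Uqcrc2 of complex III (2.38) and Sdha of complex II (1.37), named after their values were seen, were called higher than in cumulus cells. The IVF difference in oocytes against that in PGCs gave 0 members called, beside 0.019% of genes, and against that in cumulus cells 0, beside 0.00633%, with 1 member at an unadjusted p under 0.05 in each.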

How the data were processed

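Counts of reads per gene were deposited by the authors without normalization, in 7 tables with 143 count columns. Per the submitters' processing notes, reads were handled with Trimmomatic 0.32, STAR 2.3.0e, featureCounts 1.5.0 and DESeq2 on mm10, and the methods name trimgalore for the low-input libraries. Tissue libraries were stranded mRNA libraries, and PGC, oocyte and cumulus libraries were made by a modified SMART-seq protocol. Cumulus cells at 39 weeks and the first records of the 12-week cumulus cells were not analysed here.

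All genes passing edgeR's filterByExpr (minimum count 10) were tested with edgeR 4.0.16 in R 4.3.3, on TMM-scaled counts, by the quasi-likelihood test with Benjamini-Hochberg adjustment over all genes. Each table was fitted on its own for IVF against Natural, with the library set as a covariate for cumulus cells. Ages, and separately cell types, were fitted jointly for the contrasts between them. The 39-week oocytes were summed by group and compared by a ratio of CPM on total counts, without TMM scaling, with exact 95% Poisson intervals. The scripts were tested on simulated data. Alternatives were DESeq2 (1.42.0) size factors or Wald test, library totals alone, other filters, leaving out each library, a replicate block, library sets alone and, added after seeing the data, removal of each library's trend with transcript length or GC and, for cell types, library totals alone or cumulus pools that share set names left out.

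Transcript lengths came from GENCODE M21 and promoters from RefSeq. The members and gene lists were chosen with earlier results of these data known. Values in every library (for groups over 5, the lowest, median and highest, and for interaction terms, group means) were given, per comparison, for up to 10 called members at E18.5 and up to 6 elsewhere, for the 2 members with the lowest p where fewer than 2 were called, and for the largest rise and fall. In 39-week oocytes the 3 largest ratios in each direction were taken, and across ages and cells the 3 largest rises and falls. Whether replicate numbers pair the libraries was not settled, though no comparison had every same-numbered pair correlated above 0.1. These correlations ran from -0.13 to 0.01 at E18.5, from -0.01 to 0.40 in 39-week ovaries and from -0.07 to 0.54 in PGCs. In some same-numbered pairs each library was the best-correlated partner of the other. These were pairs 1, 2 and 5 of 39-week ovaries, pairs 1 and 2 of PGCs and pair 1 of 12-week ovaries, and none at E18.5 or in cumulus cells. The values of 1 member are not reported here one by one, though it is in the counts.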

Additional observations from a re-analysis of the deposited data

Results flagged for a closer look

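In 4 of the 112 groups of values examined, 1 sample lay far from the others of its group, and chance alone gives about 1 in 20 such groups. At E18.5, IVF 3 was the lowest IVF library for Ndufc2 (35.5 CPM), and IVF 1 was the lowest for Ndufa6 (44.8 CPM). Among 39-week Natural oocytes, oocyte 9 was the highest for Ndufb6 (33.9 CPM) and oocyte 4 the highest for Ndufaf7 (23.8 CPM).

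The difference between IVF and Natural ovaries itself differed between ages, by the interaction term of the joint fit (edgeR's quasi-likelihood test, adjusted over all genes). For Ndufs8 the log2 fold change at 12 weeks was 0.74 above that at E18.5. At 39 weeks against E18.5 the difference was 0.52 for Ndufs3, 0.55 for Ndufb8, 0.60 for Ndufs8, 0.69 for Ndufs4, 0.72 for Ndufs6 and 0.81 for Ndufb5. Both sets of differences use the same E18.5 libraries.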

How the results depend on the processing

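At E18.5 the number of members called lower was 5 with library totals alone, 19 with DESeq2's Wald test, 1 to 21 with 1 library left out and 0 with the trend with transcript length removed, where the median was -0.21. With the replicate number as a block it was also 0 (median -0.41, with 2 genes higher and 1 lower among all genes). At this age no library correlated best with the one of its own number. The block changed no other call. In cumulus cells 1 member was called higher without a filter on low counts and 5 in the word-named libraries alone. In 39-week oocytes 1 member was past 1.5-fold higher by the mean of single oocytes, and with 1 oocyte left out 2 to 5 were higher and 0 to 1 lower. From 12 to 39 weeks, removal of the length trend gave 4 members higher and 0 lower (median 0.12), and leaving out 1 library gave 0 to 2 lower. For the IVF effect at 12 weeks against E18.5, leaving out 1 library gave 0 to 1 members, and at 39 weeks against E18.5 2 to 21, with 2 (median 0.28) when the length trend was removed. For oocytes against PGCs, at least 10 counts in every library left 1 member higher (median -3.25), and the median was -2.77 with the length trend removed. With library totals alone it was -5.41, with 0 members higher, Ndufaf2 at -0.40 and Ndufa10 at -0.26, and with 1 library left out it ran from -3.87 to -3.33. Against cumulus cells, 2 members were higher with at least 10 counts in every library, and the median was -2.46 with the length trend removed and -3.98 with library totals alone. The cause of these changes was not tested. For the IVF effect in oocytes against cumulus cells, the median was -0.37 without the 6 cumulus pools that share set names with oocytes. Whether small differences in oocyte members near 0 could be detected at this depth was not tested.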
